A study of Homo sapiens with 6 samples.

Results

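Transcript levels of the IL-6 family of cytokines and of the receptors that share gp130 were measured in SiHa cells, a human cervical squamous carcinoma line in long use. The 10 genes are the 5 ligands IL6, IL11, LIF, CLCF1 and CTF1 and the 5 receptor chains IL6ST (gp130), IL6R, IL11RA, LIFR and OSMR, taken by name from the 58174 genes in the files. They were picked with their FPKM in the groups already known, so the differences between the groups are given for them as a description. No p-value is given for a member, and how many of them met the study's criterion is a count that the choice itself could set. All cells received plasmid DNA with Lipofectamine 3000 and were harvested after 48 h. The OV-BRCA1 group (3 samples) was transfected with the GV230-BRCA1 plasmid and the NC group (3 samples) with the GV230 plasmid alone. The 3 samples of each group are biological replicates per the study's methods, and all come from the same cell line. The deposited values are FPKM, that is, fragment numbers corrected for transcript length and for the size of the library, and the transcripts of a gene were added up.

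The 5 ligands signal through receptor complexes that contain gp130. IL-6 and IL-11 first bind the non-signalling chains IL6R and IL11RA and then pair gp130 with itself, whereas LIF, cardiotrophin-1 (CTF1) and cardiotrophin-like cytokine (CLCF1) bring gp130 together with LIFR, and oncostatin M brings it together with OSMR or LIFR. The complexes activate the kinases JAK1, JAK2 and TYK2 and the transcription factor STAT3, and SOCS3 is the classical feedback inhibitor that binds gp130. In carcinomas these cytokines are known as signals that tumour cells release and to which tumour and stromal cells respond.

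BRCA1, the gene carried by the plasmid, stood at 35.7, 40.8 and 34.9 FPKM in the OV-BRCA1 samples and at 20.1, 14.9 and 21.7 FPKM in the NC samples (log2 fold change 0.95 with a standard error of 0.14, limma with Benjamini-Hochberg adjusted p = 0.00373), a difference below the log2 fold change of 1 in the study's criterion. It was above 1 with the most abundant transcript of each gene (1.13), without NC replicate 1 (1.0033) and without NC replicate 3 (1.06), and it was 0.80 without NC replicate 2. The depth was estimated from the FPKM steps at 13.7 to 16.2 M fragments in the OV-BRCA1 samples and 15.7 to 19.2 M in the NC samples. Mitochondrial transcripts took 14.8% to 17.2% of the summed FPKM in the OV-BRCA1 samples and 21.0% to 23.2% in the NC samples. Of 10 epithelial markers, 8 had a mean of at least 0.5 FPKM. The summed level of the list was 3227 to 3377 FPKM in the OV-BRCA1 samples and 3600 to 3723 FPKM in the NC samples. Of these 8, only KRT17 was lower throughout, at 953 to 1131 FPKM against 1425 to 1442 FPKM. KRT8, KRT18, EPCAM and DSP were higher in every OV-BRCA1 sample than in any NC sample, and KRT7, KRT19 and CDH1 overlapped. KRT5 and TP63, which mark basal squamous cells, reached at most 0.202 and 0.369 FPKM in any sample. Of 10 leukocyte markers, PTPRC, MS4A1 and TYROBP were listed at 0 in all samples, and the summed level of 6.78 to 9.26 FPKM against 18.1 to 20.6 FPKM came almost wholly from CD14. The summed level of 7 fibroblast markers was 3.33 to 4.03 FPKM against 6.20 to 6.75 FPKM, mainly COL1A1, and that of 5 endothelial markers was 0.815 to 1.51 FPKM against 0.651 to 0.796 FPKM. Scaling to nuclear protein-coding genes leaves the mitochondrial transcripts out of the library size. With it the log2 fold change was 1.70 for IL6, 2.60 for IL11, 2.22 for LIF and -0.93 for IL11RA. What else the mitochondrial share has to do with the results, and what part CD14 and COL1A1 have in them, was not tested.

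Sequence before the start of IL6 and IL11 is shown because these ligands had large differences between the groups and a RefSeq promoter entry (GRCh38.p14). The table held 7 of the members (IL6, IL11, IL6ST, IL6R, IL11RA, LIFR and OSMR) in 10 windows, each from 250 bases before to 50 bases after a start. LIF, CLCF1 and CTF1 had no entry. The stretch of IL6 is chr7:22726950-22727146 on the plus strand and ends where the main transcript begins. The stretch of IL11 is chr19:55370464-55370713 on the minus strand. Both are written 5′ to 3′, with matches to the motifs searched in capitals.
IL6: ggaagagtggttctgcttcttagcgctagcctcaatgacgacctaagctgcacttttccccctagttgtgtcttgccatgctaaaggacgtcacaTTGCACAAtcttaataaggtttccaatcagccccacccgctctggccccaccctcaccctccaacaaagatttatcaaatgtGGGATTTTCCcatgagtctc
IL11: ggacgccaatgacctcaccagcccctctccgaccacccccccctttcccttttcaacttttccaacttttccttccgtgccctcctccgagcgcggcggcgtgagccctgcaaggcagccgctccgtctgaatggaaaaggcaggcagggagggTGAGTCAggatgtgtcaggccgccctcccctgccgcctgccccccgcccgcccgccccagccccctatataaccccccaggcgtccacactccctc

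The motifs searched on both strands were GGG, any 2 bases and TTTCC in a row for NF-kB, TGANTCA for AP-1, TGACGTCA for CRE, TTGCNNAA for C/EBP and TTCNNNGAA for STAT factors, and TATAAA was searched on the sense strand. IL6 held the NF-kB letters from 73 bases before the RefSeq start, which 1.91% of all 35116 promoter windows also hold, and the C/EBP letters from 155 bases before it, held by 10.46% of windows. It was the only member window with the NF-kB letters. IL11 held the AP-1 letters from 96 bases before its start, as 7.71% of windows do. The OSMR window held the AP-1 and the C/EBP letters, the IL6R window the AP-1 letters, and 2 of the LIFR windows the STAT letters (7.66% of all windows), one of them with the C/EBP letters and TATAAA as well. The windows of IL6ST and IL11RA held none of these letters, and no member window held the CRE letters (1.85% of all windows). A match describes the letters and does not show that a factor binds there.

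Short-lived cytokine mRNAs often carry AU-rich letters after their coding part, where proteins of the ZFP36 family bind. The nonamer TTATTTATT was searched in the 3′ untranslated part of the most abundant coding transcript of each gene (GENCODE 29, T standing for U). At least 1 copy was present in 7.92% of the 12097 tested genes that could be scanned and at least 2 copies in 1.65%. IL11 held 6 copies, of which 3 overlap each other, LIF, CLCF1 and OSMR held 2 each, LIFR held 1, and IL6, CTF1, IL6ST, IL6R and IL11RA held none. IL6 had the shorter letters ATTTA 6 times in 427 bases, 14.1 per kb, a density above that of 99.4% of the genes scanned. The copies below show the nonamer in capitals with up to 10 bases on each side.
IL11, bases 42 to 50: aagccagatcTTATTTATTtatttatttc
IL11, bases 318 to 326: ggaacatataTTATTTATTtaagcaatta
LIF, bases 2675 to 2683: ctccgggcccTTATTTATTatttaaacat
CLCF1, bases 882 to 890: gtattaatatTTATTTATTtggagatgtt
Positions count from the first base after the stop codon. These copies are shown because IL11 and LIF had the largest differences between the groups among the members, whereas CLCF1, with as many copies as LIF, had a small one.

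Of the members, 9 passed the filter of at least 0.5 FPKM in at least 3 samples, and CTF1 did not. The study's criterion was an adjusted p-value below 0.05 with an absolute log2 fold change above 1. In the limma fit used here it was met by IL6, IL11 and LIF, all higher in the OV-BRCA1 group. It was also met by 3.99% of the 16321 genes tested (2.89% higher and 1.1% lower). The study, with a different test, lists IL11RA among its downregulated genes, whereas its log2 fold change here was -0.90. The groups did not overlap for 7 members, of which 6 stood higher and IL11RA lower in OV-BRCA1 samples, as was the case for 50.8% of all genes tested (23.4% higher and 27.4% lower). Since the members were picked on these values, nothing is read from their counts. The samples are bulk cultures, so more producing cells and more RNA per cell cannot be told apart.

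**Figure D1:**
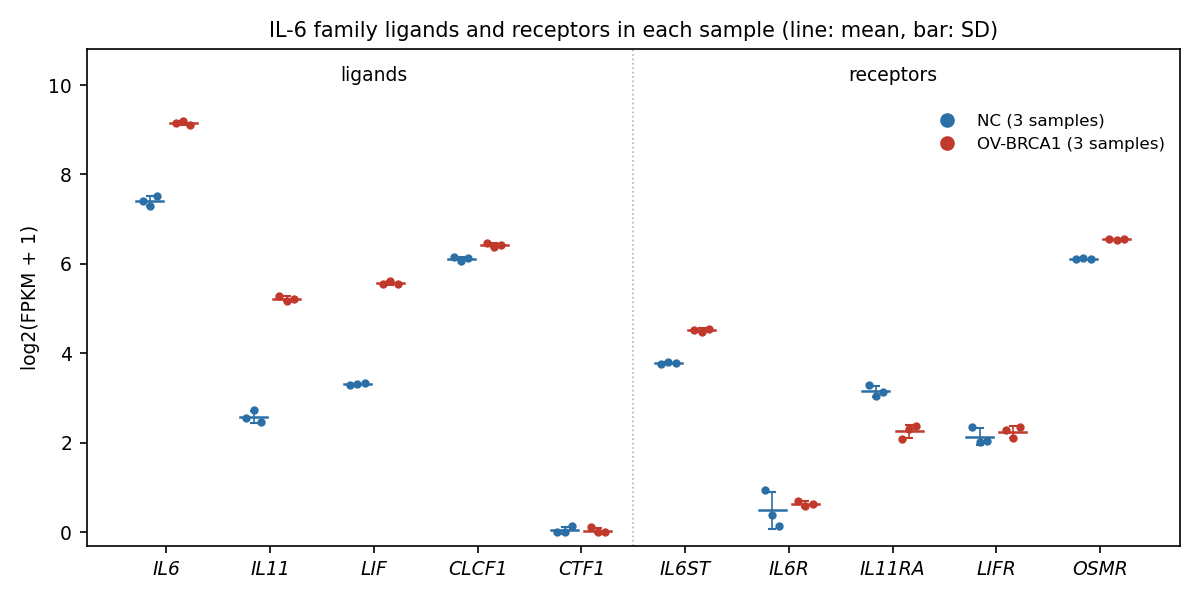
Level of each gene in each of the 6 samples as log2(FPKM + 1), NC in blue and OV-BRCA1 in red, with ligands on the left and receptor chains on the right. Points are samples, lines are means and bars are the SD of 3 samples. IL6, IL11 and LIF show the widest gaps between the groups, IL11RA is the gene with lower OV-BRCA1 values throughout, and CTF1, IL6R and LIFR overlap.

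IL6 encodes interleukin-6, an inflammatory cytokine and the ligand that gives the family its name. It was the most abundant member in every sample, at 566, 587 and 548 FPKM in the OV-BRCA1 samples and 170, 156 and 183 FPKM in the NC samples. The lowest OV-BRCA1 sample was well above the highest NC sample. The means were 567 ± 19.6 and 169 ± 13.4 FPKM (SD, n = 3 each), a ratio of 3.35, and the log2 fold change was 1.74 (standard error 0.07).

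IL11, a cytokine known for its roles in fibrosis and in epithelial tumours, stood at 37.8, 35.1 and 36.2 FPKM in the OV-BRCA1 samples and at 4.85, 5.66 and 4.54 FPKM in the NC samples. The groups were far apart compared with the spread within them. The means were 36.4 ± 1.34 and 5.02 ± 0.581 FPKM (SD, n = 3 each), and their ratio of 7.25 was the largest among the members. The log2 fold change was 2.64 (standard error 0.08) on the log2(FPKM + 1) scale, which understates changes of low levels, and 2.84 with a pseudocount of 0.1. Of all genes tested, 99.6% had a lower log2 fold change.

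LIF, leukemia inhibitory factor, stood at 46.1, 48.0 and 45.6 FPKM against 8.84, 8.92 and 9.03 FPKM. The replicates lay close together in both groups, with a spread of 2.75% of the mean in the OV-BRCA1 samples and 1.12% in the NC samples. The ratio of the means was 5.22 and the log2 fold change 2.26 (standard error 0.02). Relative to IL6, both ligands were more abundant in the OV-BRCA1 group. IL6 had an FPKM 15.6 ± 0.960 times that of IL11 in the OV-BRCA1 samples and 34.3 ± 6.40 times in the NC samples, and 12.2 ± 0.126 against 18.97 ± 1.39 times that of LIF (SD, n = 3 each).

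CLCF1, which acts through the CNTF receptor complex, was abundant in both groups. Its FPKM was 87.0, 82.6 and 84.5 against 70.0, 66.4 and 69.5, a ratio of 1.23 and a log2 fold change of 0.30 (standard error 0.03). The groups were separate, but the difference was much smaller than those of IL6, IL11 and LIF. CTF1, which encodes cardiotrophin-1, was listed at 0 in 4 of the samples and at 0.0766 and 0.101 FPKM in OV-BRCA1 sample 1 and NC sample 3. The highest of these corresponds to an estimated 3.24 fragments, and no fold change is given.

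**Figure D2:**
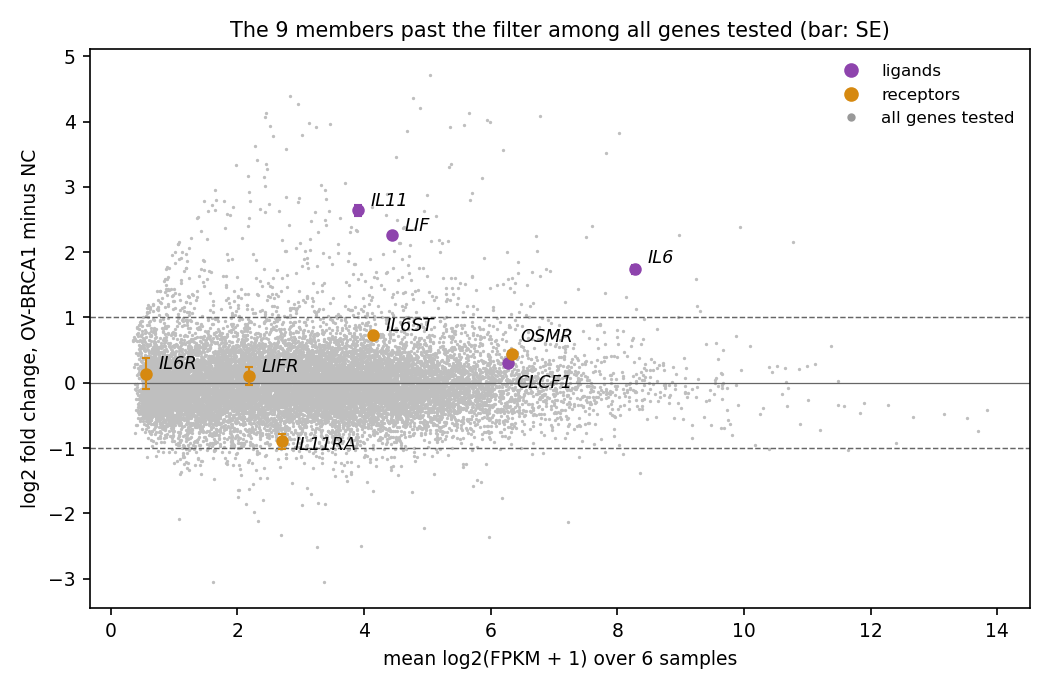
Log2 fold change (OV-BRCA1 minus NC) against the mean log2(FPKM + 1) over 6 samples for the 16321 genes tested (grey) and the 9 members past the filter, ligands in purple and receptor chains in orange, with bars for the standard error. IL11, LIF and IL6 lie above the dashed line at 1, and IL11RA lies just inside the dashed line at -1.

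IL6ST encodes gp130, the chain shared by the receptors of the 5 ligands above. It stood at 21.9, 21.1 and 22.5 FPKM in the OV-BRCA1 samples and at 12.6, 12.9 and 12.8 FPKM in the NC samples, a ratio of 1.71 and a log2 fold change of 0.73 (standard error 0.03). OSMR, the chain for oncostatin M, was the most abundant receptor gene in both groups, at 93.1, 91.3 and 93.4 FPKM against 68.0, 68.6 and 68.1 FPKM. Its ratio was 1.36 and its log2 fold change 0.43 (standard error 0.01). Both chains were higher in every OV-BRCA1 sample than in any NC sample, by less than the 2 times of the criterion.

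IL11RA, the chain that binds IL-11, was the only member that was lower throughout. Its FPKM was 3.26, 3.92 and 4.19 in the OV-BRCA1 samples and 8.74, 7.20 and 7.77 in the NC samples. The level in the NC group was 2.09 times that in the OV-BRCA1 group, and the log2 fold change was -0.90 (standard error 0.11). On the scale with a pseudocount of 0.1 it was -1.05. An estimated 62.5 to 179 fragments per sample stand behind these values. Transcripts annotated as protein-coding took 47.4% to 58.4% of the IL11RA FPKM in the OV-BRCA1 samples and 51.6% to 68.0% in the NC samples. Their summed level was 1.86 to 2.37 FPKM against 4.51 to 4.90 FPKM.

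LIFR, the partner of gp130 for LIF and CLCF1, stood at 3.87, 3.29 and 4.10 FPKM against 4.14, 3.05 and 3.12 FPKM. The groups overlapped (log2 fold change 0.11, standard error 0.13). IL6R, the chain that binds IL-6, stood at 0.616, 0.493 and 0.541 FPKM against 0.933, 0.301 and 0.103 FPKM, and the groups overlapped here too (log2 fold change 0.14, standard error 0.24). The IL6R values correspond to an estimated 9.11 to 55.2 fragments per sample, and the SD of the NC samples was 97.3% of their mean. LIFR and OSMR are neighbours on chromosome 5, with 238 kb between them (LIFR 38474963 to 38608354, OSMR 38845858 to 38945596, GRCh38), yet their levels differed, with OSMR 24.9 ± 2.56 times LIFR in the OV-BRCA1 samples and 20.3 ± 3.34 times in the NC samples (SD, n = 3 each).

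The order of the levels, which FPKM allows because it is per length, differed between the groups. In the NC group it was IL6, CLCF1, OSMR, IL6ST, LIF, IL11RA, IL11, LIFR, IL6R and CTF1, and CLCF1 and OSMR overlapped. In the OV-BRCA1 group it was IL6, OSMR, CLCF1, LIF, IL11, IL6ST, IL11RA, LIFR, IL6R and CTF1, and IL11RA and LIFR overlapped. All other neighbours had separate values. LIF and IL11 thus stood below gp130 in the NC group and above it in the OV-BRCA1 group.

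Ratios of partner genes within a sample show the same values side by side. IL11 was 11.6, 8.97 and 8.65 times IL11RA in the OV-BRCA1 samples and 0.555, 0.786 and 0.584 times in the NC samples. The ratio of LIF to LIFR was 12.5 ± 1.82 against 2.65 ± 0.449, and that of IL6 to IL6ST 26.0 ± 1.72 against 13.3 ± 1.11 (SD, n = 3 each). The ratio of OSMR to IL6ST was 4.24 ± 0.0831 against 5.35 ± 0.0514. These are ratios of RNA and not of protein, and the IL11RA level includes its transcripts that are not annotated as protein-coding.

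**Figure D3:**
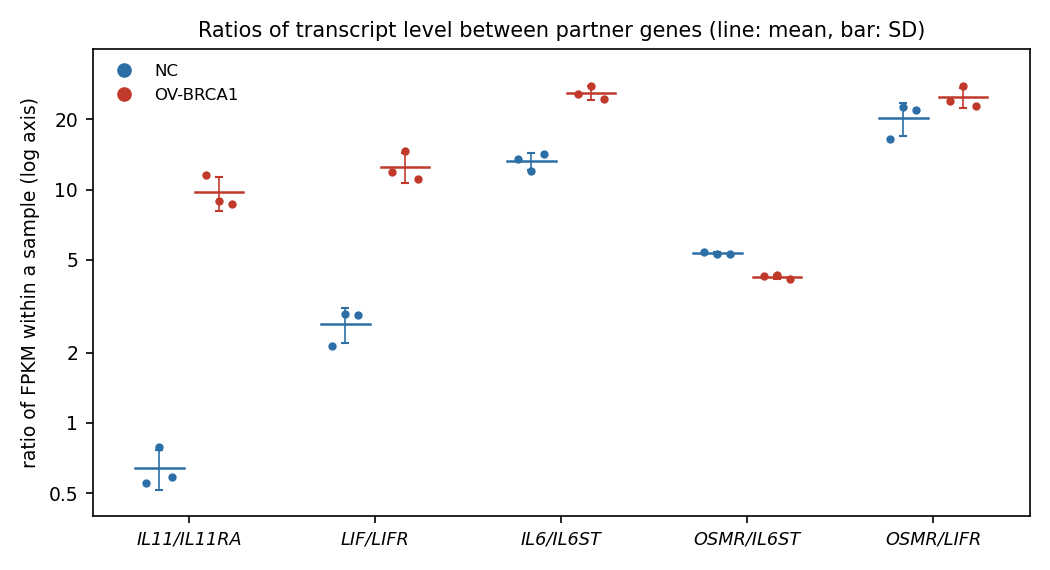
Ratio of FPKM between partner genes within each sample on a log axis, NC in blue and OV-BRCA1 in red, with the mean as a line and the SD of 3 samples as a bar. The ratio of IL11 to IL11RA is below 1 in the 3 NC samples and between 8.65 and 11.6 in the OV-BRCA1 samples, and OSMR to IL6ST is the ratio with lower OV-BRCA1 values. OSMR to LIFR lies at 22.8 to 27.7 in OV-BRCA1 and 16.4 to 22.5 in NC, almost touching.

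The files divide each gene over annotated transcripts. IL6 (chromosome 7, 22725884 to 22732002, 9 transcripts) was carried mainly by IL6-201, with 443, 481 and 389 FPKM against 86.4, 106 and 142 FPKM. IL6-204, which starts further upstream, took 11.6% of IL6 in OV-BRCA1 sample 3 and 24.0% in NC sample 1 but at most 1.499% in the other 4 samples. The 2 transcripts annotated with a retained intron, IL6-208 and IL6-209, took 13.1% to 15.8% of the IL6 FPKM in the OV-BRCA1 samples and 17.8% to 24.4% in the NC samples. Their summed level was 74.6 to 89.4 FPKM against 32.6 to 38.1 FPKM, so it was higher in the OV-BRCA1 samples while its share was lower. IL6-204, IL6-208, IL6-209 and IL11-203 each held under 10% of their gene's FPKM summed over all 6 samples, though more in some samples, and were picked for mention from their values.

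IL11 (chromosome 19, 55364389 to 55370463, 4 transcripts) was divided differently in the groups. The main transcript IL11-201 stood at 29.5, 26.5 and 28.1 FPKM against 2.28, 2.47 and 2.36 FPKM, a ratio of 11.8. The short transcript IL11-203, of 650 bases within the gene, stood at 2.12, 2.55 and 1.999 FPKM against 1.78, 1.93 and 1.65 FPKM. IL11-203 took 34.1% to 36.7% of the gene's FPKM in the NC group and 5.52% to 7.26% in the OV-BRCA1 group. The ratio of 7.25 for the summed gene is therefore lower than that of IL11-201 alone. LIF (chromosome 22, 30240447 to 30246851) was 92.9% to 97.1% LIF-201 in all samples, and CLCF1 (chromosome 11, 67364168 to 67374177) was at least 98.9% CLCF1-201.

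In IL6ST (chromosome 5, 55935095 to 55994993, 15 transcripts) the division varied from sample to sample within each group. IL6ST-206 took 92.5%, 93.0% and 1.63% in the OV-BRCA1 samples and 80.7%, 82.4% and 10.98% in the NC samples. In OV-BRCA1 sample 3 IL6ST-201 took 80.9%, and in NC sample 3 IL6ST-203 took 76.1%. The 3 transcripts are 8667 to 9057 bases long, and the sum over the gene stayed within 12.6 to 12.9 FPKM in the NC group. For IL6ST-206 alone the log2 fold change was 0.31, so single transcripts of gp130 are not interpreted. LIFR showed the same, with LIFR-201 at 0 in OV-BRCA1 sample 2 and at 2.49 to 3.36 FPKM in the others, and the log2 fold change of LIFR-201 alone was -0.49. OSMR was steady, with OSMR-201 at 65.7% to 69.6% in all samples.

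**Figure D4:**
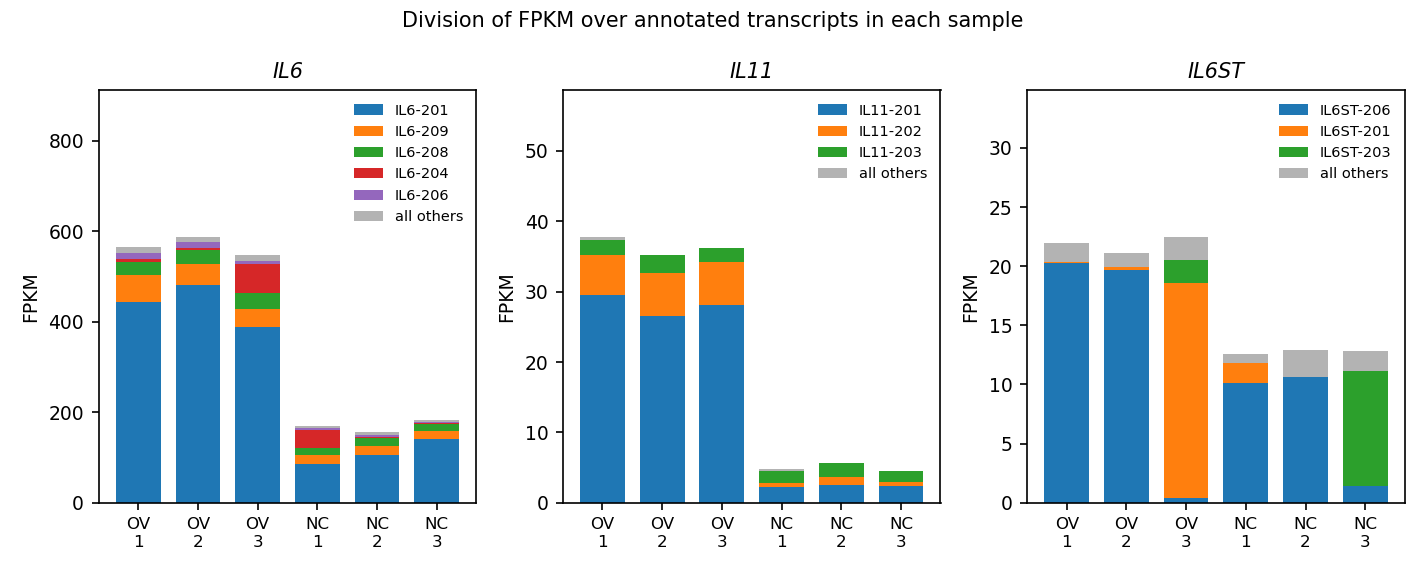
FPKM of IL6, IL11 and IL6ST in each sample, stacked by annotated transcript, with the 3 OV-BRCA1 samples on the left and the 3 NC samples on the right of each panel. The division of IL11 differs between the groups (IL11-203 takes 34.1% to 36.7% in NC), whereas that of IL6ST differs between samples of the same group.

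Several members overlap other genes. The antisense gene AC073072.1 overlaps the start of IL6 and stood at 1.22 to 1.43 FPKM against 0.356 to 0.515 FPKM, and AC004264.1 overlaps the start of LIF and stood at 2.81 to 3.19 FPKM against 0.530 to 0.739 FPKM. RICTOR, on the strand opposite to OSMR, stood at 16.2 to 20.7 FPKM against 10.2 to 10.9 FPKM. The short pseudogene AC016596.1 (55944656 to 55944733), within IL6ST on the opposite strand, stood at 69.5 to 72.3 FPKM against 62.7 to 75.7 FPKM. RAD9A, opposite to CLCF1, stood at 15.0 to 16.7 FPKM against 17.2 to 17.6 FPKM. The use of strand in the quantification is not given in the sources used here, so reads of such pairs cannot be told apart. IL11RA (chromosome 9, 34650702 to 34661892) overlaps the end of GALT on the same strand (7.61 against 9.88 FPKM), and CLCF1 overlaps AP003419.1, at 1.30 to 3.72 FPKM against 2.16 to 4.77 FPKM, so reads could be split between them.

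Around the members, genes of the pathway were tested with limma over all 16321 genes, where 35.3% of genes passed an adjusted p-value of 0.05, 16.4% higher and 18.9% lower. Medians of the log2 fold change were -0.04 over all genes tested, -0.10 for signal transducers, -0.00484 for inhibitors, 0.18 for receptor shedding, -0.08 for transcription regulators and 0.58 for mRNA stability. Among other genes of the family, IL27RA, a receptor chain for IL-27 that pairs with gp130, stood at 7.60 against 6.21 FPKM (limma with Benjamini-Hochberg adjusted p = 0.0557). This gene was picked for mention from its values. OSM, which encodes the ligand of OSMR, was listed at 0 in every sample, as were IL27, IL31 and IL31RA.

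Of 10 signal transducers, 3 fell, none rose and 7 did not pass the test. JAK1, the main kinase of gp130, fell from 38.1 ± 0.560 to 31.3 ± 0.515 FPKM (SD, n = 3; log2 fold change -0.28, limma with Benjamini-Hochberg adjusted p = 0.0053). TYK2 fell by 0.58 and the adaptor SHC1 by 0.27 on the log2 scale. STAT3, the main transcription factor of the pathway, stood at 37.9, 37.8 and 40.4 FPKM in the OV-BRCA1 samples and 39.2, 38.4 and 44.5 FPKM in the NC samples (log2 fold change -0.07, standard error 0.07, limma with Benjamini-Hochberg adjusted p = 0.481). With the most abundant transcript in place of the sum, TYK2 (adjusted p = 0.211) and SHC1 (adjusted p = 0.816) did not pass limma's test. Their log2 fold changes were then larger in size, at -1.07 for TYK2 and -0.41 for SHC1. Over all alternatives the adjusted p-values ranged from 0.0103 to 0.211 for TYK2 and from 0.00561 to 0.816 for SHC1.

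Of 8 inhibitors, 1 rose and 7 did not pass. SOCS1, an inhibitor of JAK kinases that interferons also induce, rose from 3.20, 3.71 and 3.27 FPKM in the NC samples to 5.83, 8.12 and 6.37 FPKM (log2 fold change 0.81, limma with Benjamini-Hochberg adjusted p = 0.00417). SOCS3, the inhibitor that gp130 signalling itself induces, stood at 4.77, 4.61 and 5.02 FPKM against 4.89, 4.93 and 4.46 FPKM, and the groups overlapped (log2 fold change 0.01, standard error 0.08). SOCS2 stood at 25.3 against 17.6 FPKM (limma with Benjamini-Hochberg adjusted p = 0.0644). It is mentioned because of its values. The number of inhibitors that passed was 2 without OV-BRCA1 replicate 2 and with either scaling alternative.

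Of the 4 genes for the proteases that release receptor ectodomains and their cofactors, RHBDF2 rose (log2 fold change 0.36) and RHBDF1 fell (-0.50), with limma and Benjamini-Hochberg adjusted p-values of 0.0401 and 0.0436. Neither call was stable. Of 12 alternatives, 8 lost the call of RHBDF2 and 9 that of RHBDF1, among them the omission of OV-BRCA1 replicate 1, OV-BRCA1 replicate 2 or NC replicate 2 for both, of NC replicate 3 for RHBDF2, and of OV-BRCA1 replicate 3 or NC replicate 1 for RHBDF1. The adjusted p-values of the alternatives ranged from 0.0322 to 0.652 for RHBDF2 and from 0.0261 to 0.672 for RHBDF1. ADAM17, the protease that sheds IL6R, stood at 10.4 ± 1.41 against 8.70 ± 1.04 FPKM (SD, n = 3; limma with Benjamini-Hochberg adjusted p = 0.174).

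Of 14 regulators of cytokine transcription, 2 rose, 5 fell and 7 did not pass. Within the AP-1 group the directions were opposite. FOSL1 rose from 17.1 ± 3.48 to 78.5 ± 12.8 FPKM (log2 fold change 2.14), whereas FOS fell from 312 ± 15.2 to 70.6 ± 2.33 FPKM (-2.13), and ATF3 (-1.24), JUND (-0.63) and JUNB (-0.28) fell as well. NFKB1, a subunit of NF-kB, rose from 11.2 ± 0.544 to 15.4 ± 0.135 FPKM (SD, n = 3; log2 fold change 0.42, limma with Benjamini-Hochberg adjusted p = 0.00316). RELA stood at 33.5, 15.8 and 19.9 FPKM in the OV-BRCA1 samples and 37.4 to 39.6 FPKM in the NC samples (limma with Benjamini-Hochberg adjusted p = 0.0544), and its values led to its mention. CEBPB, at 175 against 168 FPKM, overlapped between the groups.

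Of 5 regulators of cytokine mRNA stability, 3 rose and none fell. ZFP36L2, which binds AU-rich letters such as those shown above for IL11, rose from 10.9 ± 0.702 to 17.5 ± 0.308 FPKM (log2 fold change 0.64). ZC3H12A, the RNase that degrades IL6 mRNA, rose from 39.5 ± 0.757 to 52.0 ± 1.40 FPKM (0.39), and ARID5A, which protects IL6 mRNA, rose from 0.788 ± 0.251 to 1.79 ± 0.126 FPKM (SD, n = 3 each; 0.65). Their limma and Benjamini-Hochberg adjusted p-values were 0.000917, 0.00155 and 0.00880. The 3 genes that rose thus include some known to act on IL6 mRNA in opposite ways. With a pseudocount of 0.1 the log2 fold change of ARID5A was 1.13, and with the most abundant transcript that of ZC3H12A was 0.70.

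Of 34 target genes of STAT3, 26 were tested, of which 8 rose, 6 fell and 12 did not pass, with a median log2 fold change of 0.07 beside -0.04 for all genes tested. Past the fold change of the criterion, 6 rose and none fell, beside 2.89% higher and 1.1% lower among all genes tested. The list was chosen with earlier results of these data known, so nothing is read from this count. SAA1, an acute-phase protein, rose from 28.7 ± 2.07 to 90.9 ± 5.37 FPKM (log2 fold change 1.63) and ICAM1, an adhesion molecule, from 40.1 ± 1.11 to 114 ± 2.42 FPKM (1.49). CCND1, which encodes cyclin D1, rose from 0.662 ± 0.0740 to 4.39 ± 0.317 FPKM. Its log2 fold change was 1.70, and 2.56 with a pseudocount of 0.1. The stress gene IER3 rose by 1.04 on the log2 scale, and FOSL1 and SAA2 made up the 6, SAA2 being outside the rule for naming genes. PIM1 (-0.65), BCL6 (-0.62), JUNB (-0.28) and TIMP1 (-0.18) fell. The largest of these adjusted p-values was 0.0124 for TIMP1 (limma with Benjamini-Hochberg adjustment). With the most abundant transcript in place of the sum, BCL6 (adjusted p = 0.855) and TIMP1 (adjusted p = 0.123) did not pass limma's test. The log2 fold change of BCL6 was then smaller in size (-0.26) and that of TIMP1 larger (-0.36). Without the filter TIMP1 did not pass either (adjusted p = 0.109), with the log2 fold change unchanged at -0.18. Over all alternatives the adjusted p-values ranged from 0.00145 to 0.855 for BCL6 and from 0.00459 to 0.123 for TIMP1. Of the list, 7 genes belong to another list here as well.

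**Figure D5:**
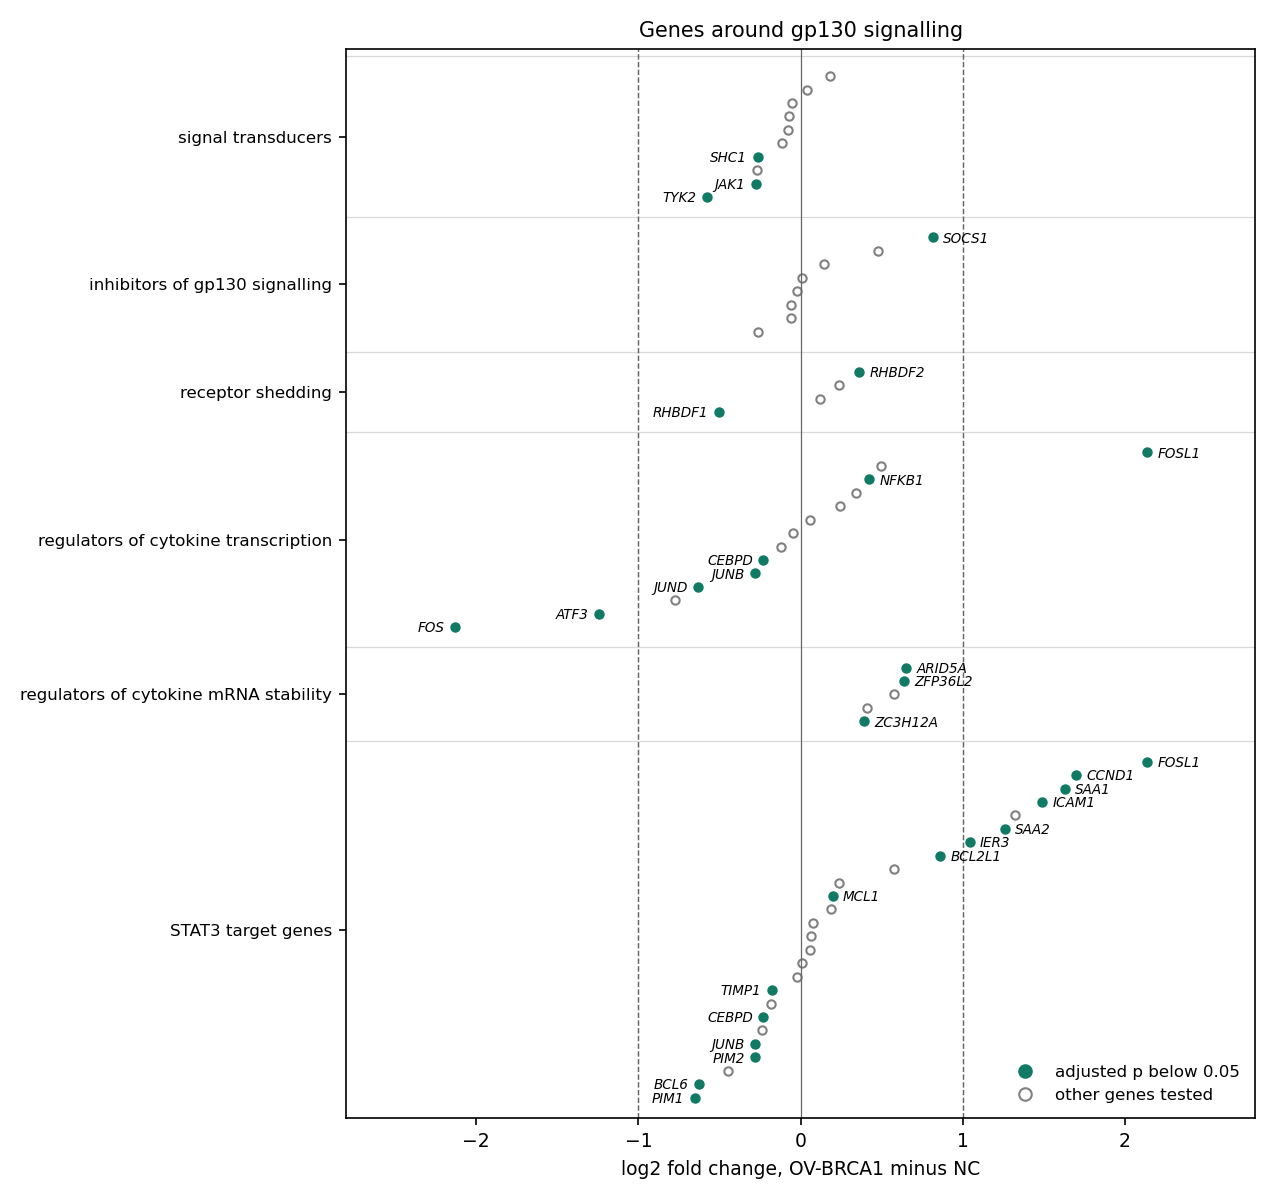
Log2 fold change (OV-BRCA1 minus NC) of the tested genes of 6 lists around gp130 signalling, 1 point per gene, filled where the adjusted p-value from limma was below 0.05. Dashed lines mark -1 and 1. FOS and FOSL1 lie at -2.13 and 2.14, the signal transducers that passed lie below 0, and 6 of the STAT3 targets that passed lie above 1.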

How the data were processed

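mRNA of 6 SiHa cultures was captured with beads and sequenced. The authors removed low-quality and adapter reads, and the submitters' processing notes name FastQC, HISAT2 and hg38. The quantifier, annotation and strand use are not given in the sources used here. The deposited values are FPKM for 199167 transcripts of 58174 genes, and the 6 sample files were identical to the series table. GENCODE 29 held 198868 of the transcripts, 98.7% of them at the same position.

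FPKM was summed per gene. Genes with at least 0.5 FPKM in at least 3 samples were tested on log2(FPKM + 1) with limma 3.58.1 (trend) in R 4.3.3, with Benjamini-Hochberg adjustment over all genes tested. The study's negative binomial test needs counts and was not run. The fit was tested on simulated data. Standard errors of members come from the variances of their samples, those of other genes from limma.

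Depth was estimated from 14216 single-transcript genes of 600 to 5000 bases, as the most frequent low value of FPKM times length. Only 31.2% to 34.4% of low values lay within 0.1 of a whole number, so whole reads were not recovered, and fragment numbers are approximate.

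The members and gene lists were chosen with earlier results of these data known. Some genes of the lists are not reported here. The rule for naming covered all members, BRCA1, STAT3, JAK1, SOCS3 and ADAM17. It added up to 4 genes per list and direction with the smallest adjusted p-values below 0.05. Transcripts with at least 10% of a member's FPKM summed over all samples were covered too, but not all of them are described. Alternatives were a pseudocount of 0.1, no filter, a replicate block, scaling by median of ratios or by nuclear protein-coding genes, the most abundant transcript, and each sample left out. Figures were drawn with matplotlib 3.10.9.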

Additional observations from a re-analysis of the deposited data

How the results depend on the processing

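IL6, IL11, LIF, CLCF1, IL6ST and OSMR stayed higher and IL11RA lower in the OV-BRCA1 group under all 12 alternatives. The number of members past the criterion was 3 under 11 of them and 4 with a pseudocount of 0.1, where IL11RA had a log2 fold change of -1.05. Of 105 member values, 88 moved by less than 1 SD and 17 by more. With the most abundant transcript the log2 fold change was 3.11 for IL11, 1.99 for IL6, 0.31 for IL6ST and -0.49 for LIFR, and that of IL6R was 0.57 with a pseudocount of 0.1 and -0.03 without NC replicate 3, against 0.14. With a pseudocount of 0.1 the number of DEGs was 1280 (764 higher, 516 lower) in place of 651 (472 higher, 179 lower). Signal transducers past the adjusted p-value numbered 1 with the most abundant transcript. Inhibitors numbered 2 with either scaling and 1 to 2 when a sample was left out. Genes of receptor shedding numbered 0 without the filter and with the most abundant transcript, 1 with either scaling and 0 to 1 when a sample was left out. With the most abundant transcript RHBDF1 reversed to 0.1781 and STAT3 to 0.0670. SOCS3 reversed to -0.0232 when scaled to nuclear protein-coding genes and ranged from -0.0286 to 0.0335 when a sample was left out. The causes were not tested.

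With the replicate block 4595 genes had an adjusted p-value below 0.05, against 5764 without it, and 0 genes of receptor shedding passed. It moved no other list's number by more than 1.5 times. Deviations of same-numbered samples correlated at -0.0244, 0.0250 and 0.0136 across genes, and OV-BRCA1 sample 1 correlated best with NC sample 3. The labels link the samples only by number. With 3 samples per group these correlations cannot tell whether same-numbered samples share a batch. CTF1 and IL6R have the fewest estimated fragments.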

Other observations

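Some genes on these lists varied widely within a group, and they were picked for that reason. GRB2, an adaptor of gp130 signalling, stood at 10.9, 10.96 and 34.6 FPKM in the OV-BRCA1 samples and at 9.52, 16.1 and 34.4 FPKM in the NC samples. ZFP36 stood at 14.8, 8.84 and 34.0 FPKM against 11.4, 9.86 and 11.1 FPKM. ZFP36L1 was at 48.3, 45.9 and 20.2 FPKM in the NC samples and FOSL2 at 19.6, 16.4 and 5.46 FPKM, with OV-BRCA1 values of 45.0 to 50.2 FPKM and 17.1 to 18.0 FPKM. None of the 4 genes passed the test, and their limma and Benjamini-Hochberg adjusted p-values were 0.339 to 0.898.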
